A study of Mus musculus with 28 samples.

Results

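The Slit, Robo and netrin guidance genes measured here were the ligand genes Slit1, Slit2, Slit3 and Ntn1 and the receptor genes Robo1, Robo2, Robo3, Dcc, Unc5c and Unc5d, 10 of the 19938 genes tested. They were the genes of this named family whose probe sets carried a single symbol in the platform annotation, which gave 11 of the 35556 probe sets. Only Unc5d had more than 1, and its probe set with the higher mean over all arrays was used (10577999, mean 7.11; the other, 10577996, had a mean of 6.80). Total RNA of mouse cells, strain 129SvEv, was hybridised to 28 expression arrays in 12 groups. Embryonic stem (ES) cells, neuronal progenitor (NP) cells and cells at the stage labelled TN day 2 were either wild type or knockout for topoisomerase IIβ (Top2β), with 2 arrays for each genotype and stage, and 3 arrays of each genotype came from TN day 6. What TN stands for is not given by the labels. ICRF-193, an inhibitor of topoisomerase II, or DMSO as vehicle was given to cells at TN day 5 (2 arrays for each agent) and to cells labelled as cortical glutamatergic neurons of E16.5 embryos (3 arrays for each agent). No label gives a genotype for these last 4 groups. One treatment text stands on every sample, 50 µM ICRF-193 or DMSO renewed each 24 h over TN days 2 to 5, so the days of treatment of the cortical cells are not known. Nothing in the labels says whether replicates came from separate cultures or animals or how many knockout clones were used, and p-values therefore measure only the spread between these arrays, which may be technical.

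Slit proteins are secreted by cells of the midline and elsewhere and repel growing axons through Robo receptors on the growth cone. Netrin-1, the product of Ntn1, attracts axons that carry Dcc and repels those in which an Unc5 receptor acts, alone or together with Dcc. Robo3 differs from Robo1 and Robo2 in lowering the response of commissural axons to Slit until they have crossed the midline, and Slit-Robo signalling also acts in neuronal migration and in the progenitor zone of the cortex. Topoisomerase IIβ, encoded by Top2b, is the topoisomerase II of cells that no longer divide, while its paralog Top2a belongs to dividing cells, and ICRF-193 blocks the catalytic cycle of both enzymes.

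Array medians lay between 6.12 and 6.43 on the log2 scale, and arrays of one group correlated at 0.984 to 0.996 except the 2 knockout ES arrays, at 0.974. Top2b, the gene targeted in the knockout, read 11.40 and 11.35 on the wild-type and 8.99 and 8.94 on the knockout arrays of TN day 2, and 11.32, 11.19 and 11.15 against 9.04, 8.68 and 9.0 at TN day 6. It was lower in knockout cells by limma at all 4 stages, and whether its probe set lies in the deleted part is not known here. The difference was smallest in ES cells (-1.29, adjusted p = 0.018), at 7.96 and 7.52 in the wild type against 7.11 and 5.79 in the knockout. Stage markers followed the labels, with Pou5f1 at 11.27 in wild-type ES cells and Pax6 at 10.44 in wild-type NP cells. The cortical DMSO arrays carried the cortical glutamatergic genes Tbr1 at 10.14 and Neurod6 at 10.55, and also the GABAergic genes Gad1 at 10.39 and Gad2 at 9.34, so they were not free of other neurons. Wild-type cells at TN day 6 had Slc17a6, the vesicular glutamate transporter of many subcortical neurons, at 10.45 and Gad1 at 10.12, with Tbr1 at 5.12 and Neurod6 at 4.75. In bulk RNA, fewer cells of a type and less RNA per cell cannot be told apart, which holds for every difference reported here.

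The 2 knockout ES arrays stood apart in several of the guidance genes, and since each gene's error was pooled over all 28 arrays this pair entered every test. Unc5c read 8.83 on the first and 6.11 on the second, Robo2 8.73 and 6.25, Slit2 9.33 and 7.35, and Slit3 10.15 and 8.39. Ntn1 differed the other way, at 7.77 and 8.83. This 1 pair held 87.5% of the residual variation of Robo2, 89.8% of that of Slit2, 84.3% of that of Unc5c and 81.0% of that of Slit3. Where leaving the pair out of the fit changed a call of these 4 genes, the adjusted p without it is also given. Over all genes the median absolute difference between the 2 knockout ES arrays was 0.24, against 0.10 between the wild-type ES arrays and at most 0.19 in any other pair, and 7.05% of genes lay 1 log2 unit or more apart. The mean of the mesenchymal and fibroblast markers was 9.80 on the first knockout ES array and 7.73 on the second, against 7.95 and 7.94 on the wild-type arrays, and that of the pluripotency markers was 9.40 and 10.59 against 10.60 and 10.47. The part of these cells in the guidance gene values was not tested.

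**Figure D1:**
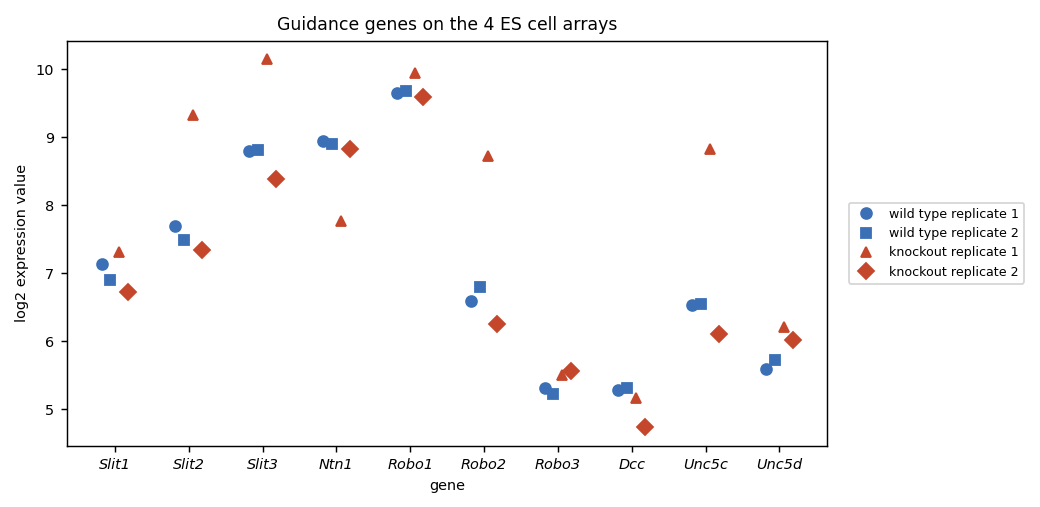
Expression values (log2, vertical axis) of the 10 guidance genes on each of the 4 ES cell arrays, 2 wild type (blue) and 2 knockout (red). The first knockout array (triangles) lay above the second (diamonds) by 2.72 for Unc5c, 2.49 for Robo2, 1.98 for Slit2 and 1.75 for Slit3, while the wild-type arrays differed by at most 0.24.

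Most of the family lies in long genes. By the RefSeq annotation of GRCm38.p6, from transcript start to transcript end, Robo2 spans 1555 kb, Dcc 1098 kb, Robo1 1020 kb, Slit3 587 kb, Unc5d 573 kb, Unc5c 369 kb, Slit2 326 kb, Ntn1 177 kb, Slit1 149 kb and Robo3 17.4 kb. The median over 19856 genes with a span was 17.7 kb, and 11.6% of them span over 100 kb, as 9 of the 10 guidance genes do. RefSeq start sites with upstream windows were at hand for 6 of the 10 genes, in 8 windows. The 250 bases upstream of a RefSeq start site are shown for Robo1, Slit3 and Unc5c, picked by their expression differences. A gene may have several such sites, as Robo2 did, and the site shown need not be where the span begins. Robo1 fell in 4 comparisons at the TN stages and in cortical neurons. Slit3 rose in knockout cells at TN day 6. The difference of Unc5c between genotypes had opposite signs at TN day 2 and TN day 6, but neither was called (limma adjusted p = 0.11 and 0.3). All are on the plus strand of GRCm38.p6, 5′ to 3′, with CG dinucleotides in capitals: Robo1 at chr16:72662899-72663148, Slit3 at chr11:35121206-35121455 and Unc5c at chr3:141465314-141465563.
Robo1: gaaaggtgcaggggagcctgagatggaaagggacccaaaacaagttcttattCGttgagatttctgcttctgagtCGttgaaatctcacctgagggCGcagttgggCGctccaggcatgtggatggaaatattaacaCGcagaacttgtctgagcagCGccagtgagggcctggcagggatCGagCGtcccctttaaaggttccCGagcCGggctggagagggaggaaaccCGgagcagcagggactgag
Slit3: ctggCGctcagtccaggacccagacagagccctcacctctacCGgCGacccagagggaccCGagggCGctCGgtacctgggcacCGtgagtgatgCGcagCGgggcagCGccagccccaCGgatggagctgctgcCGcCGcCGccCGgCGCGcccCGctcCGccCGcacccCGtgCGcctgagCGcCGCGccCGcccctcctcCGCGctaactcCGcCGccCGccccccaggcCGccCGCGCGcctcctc
Unc5c: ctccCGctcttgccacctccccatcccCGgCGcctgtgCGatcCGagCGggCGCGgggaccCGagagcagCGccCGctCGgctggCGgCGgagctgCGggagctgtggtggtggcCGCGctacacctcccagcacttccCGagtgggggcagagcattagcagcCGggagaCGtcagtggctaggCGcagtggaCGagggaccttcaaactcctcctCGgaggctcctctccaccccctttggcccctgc
The Robo1 window held 11 CG dinucleotides, the Slit3 window 35 and the Unc5c window 23, against a median of 6 over 32851 mouse windows of this length. The Robo1 count was higher than in 64.4% of those windows, the Slit3 count higher than in 97.0% and the Unc5c count higher than in 86.7%. On either strand, the TATA-box letters TATAAA were in none of these 3 windows and in 12.4% of all windows, and the GC-box letters GGGCGG were in the Slit3 window and in 32.7% of all windows. Of the guidance gene windows not shown, that of Slit2 held both TATAAA and GGGCGG, that of Robo3 held GGGCGG, and those of Robo2 held neither.

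During wild-type differentiation most of the family rose at the first steps. From ES to NP cells 8 of the 10 genes rose and none fell, while 21.7% of all genes rose and 24.5% fell. The largest of these rises was that of Dcc, the attractive netrin receptor, which read 5.29 and 5.31 in ES cells and 9.73 and 9.70 in NP cells, a rise of 4.41 ± 0.17 (SE; limma adjusted p = 2.3e-14). Robo3 went from 5.31 and 5.23 to 8.42 and 8.24, a rise of 3.06 ± 0.24 (adjusted p = 1e-09). For both receptor genes every NP array lay well above every ES array. Unc5c rose by 2.04 ± 0.46, Robo2 by 1.62 ± 0.42, Robo1 by 1.04 ± 0.15 and Unc5d by 0.70 ± 0.16. Among the ligand genes Slit2 rose by 1.87 ± 0.33, from 7.69 and 7.49 to 9.51 and 9.40, and Slit1 by 0.93 ± 0.20. Ntn1, at 8.94 and 8.90 in ES and 8.73 and 8.62 in NP cells, and Slit3, at 8.80 and 8.81 against 8.67 and 8.41, were not called. The median of the 10 genes was 1.33, against 0.05 over all genes.

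From NP cells to TN day 2, 7 of the 10 rose and none fell, where 21.6% of all genes rose and 26.6% fell. Robo2, a Slit receptor, rose by 1.70 ± 0.42 (adjusted p = 0.0016), from 8.29 and 8.36 to 9.87 and 10.18. Slit1 rose by 1.25 ± 0.20, from 8.01 and 7.90 to 9.20 on both arrays, and Unc5d by 1.16 ± 0.16, from 6.44 and 6.28 to 7.30 and 7.73. The TN day 2 arrays of these called genes all lay above their NP arrays, which describes the calls and is no further test. Robo3 rose by 1.10 ± 0.24, Dcc by 0.96 ± 0.17, Slit2 by 0.92 ± 0.33 and Robo1 by 0.47 ± 0.15. Unc5c, which mediates netrin repulsion, was at 8.68 and 8.49 in NP cells and 7.29 and 7.87 at TN day 2, a change of -1.0 ± 0.46 that was not called (adjusted p = 0.081). With the knockout ES arrays left out of the fit, Unc5c (adjusted p = 0.00015), Slit3 (-0.72, adjusted p = 0.00025) and Ntn1 (-0.57, adjusted p = 0.027) were called lower, so that 7 rose and 3 fell, against 23% and 29.2% of all genes. The call of Slit2 ended without either NP array or the second TN day 2 array, and that of Robo1 without the first array of either stage.

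From TN day 2 to TN day 6 the family split, with 3 genes higher and 5 lower, against 16.7% and 11.9% of all genes. Robo3, the receptor of axons that have yet to cross the midline, fell by 1.83 ± 0.22 (adjusted p = 1.2e-06), from 9.71 and 9.14 to 7.56, 7.82 and 7.39. Robo2 rose by 1.39 ± 0.38 over the same days (adjusted p = 0.0084), to 11.47, 11.36 and 11.40, its highest group. Arrays of the 2 days did not overlap for either gene. Unc5d rose by 0.96 ± 0.15 and Unc5c by 1.18 ± 0.42. Slit3 fell by 1.16 ± 0.28, Robo1 by 0.57 ± 0.14, Slit1 by 0.54 ± 0.19 and Dcc by 0.51 ± 0.16. Without the first wild-type array of TN day 2 the calls of Robo1, Robo2, Slit1, Dcc and Unc5c ended and 3 of the 8 remained, besides a call of Ntn1 as higher. Without the second array those of Slit1, Slit3 and Unc5c ended and 5 remained. The Unc5c call (adjusted p = 0.04) ended without any 1 of the 5 arrays compared and with a trended and robust prior, and that of Slit1 also without the first or second TN day 6 array and with medians centred. With the knockout ES arrays left out of the fit, Slit2 (-0.74, adjusted p = 0.073 with them) was called lower too (adjusted p = 2.1e-05), so that 3 rose and 6 fell, against 20% and 14.1% of all genes. Consecutive steps share arrays, so they are not independent of each other.

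Each gene thus had its own course over the 12 groups, shown in the plot of values by array. Dcc ranged most, from a mean of 4.96 in knockout ES cells to 10.67 in wild-type cells at TN day 2, and Robo2 next, from 6.70 in wild-type ES cells to 11.41 in wild-type cells at TN day 6. When the groups of a gene were put in order of their means, 8 of the 11 pairs of neighbours were separated without overlap of arrays for both of these genes. How often other genes are separated in this way is not given here. Slit1 ranged least, from 7.02 to 9.20, with overlap in 8 of its 11 neighbouring pairs, and Ntn1, from 6.42 to 8.92, also overlapped in 8. Of the 10 genes, Robo1, Slit2, Slit3 and Ntn1 were lowest in cortical neurons given ICRF-193, Robo3 in cortical neurons given DMSO, and Slit1, Robo2, Dcc, Unc5c and Unc5d in ES cells. Slit3 was the gene highest in ES cells of the knockout, on the strength of 1 of its 2 arrays, and Ntn1 was highest in wild-type ES cells.

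**Figure D2:**
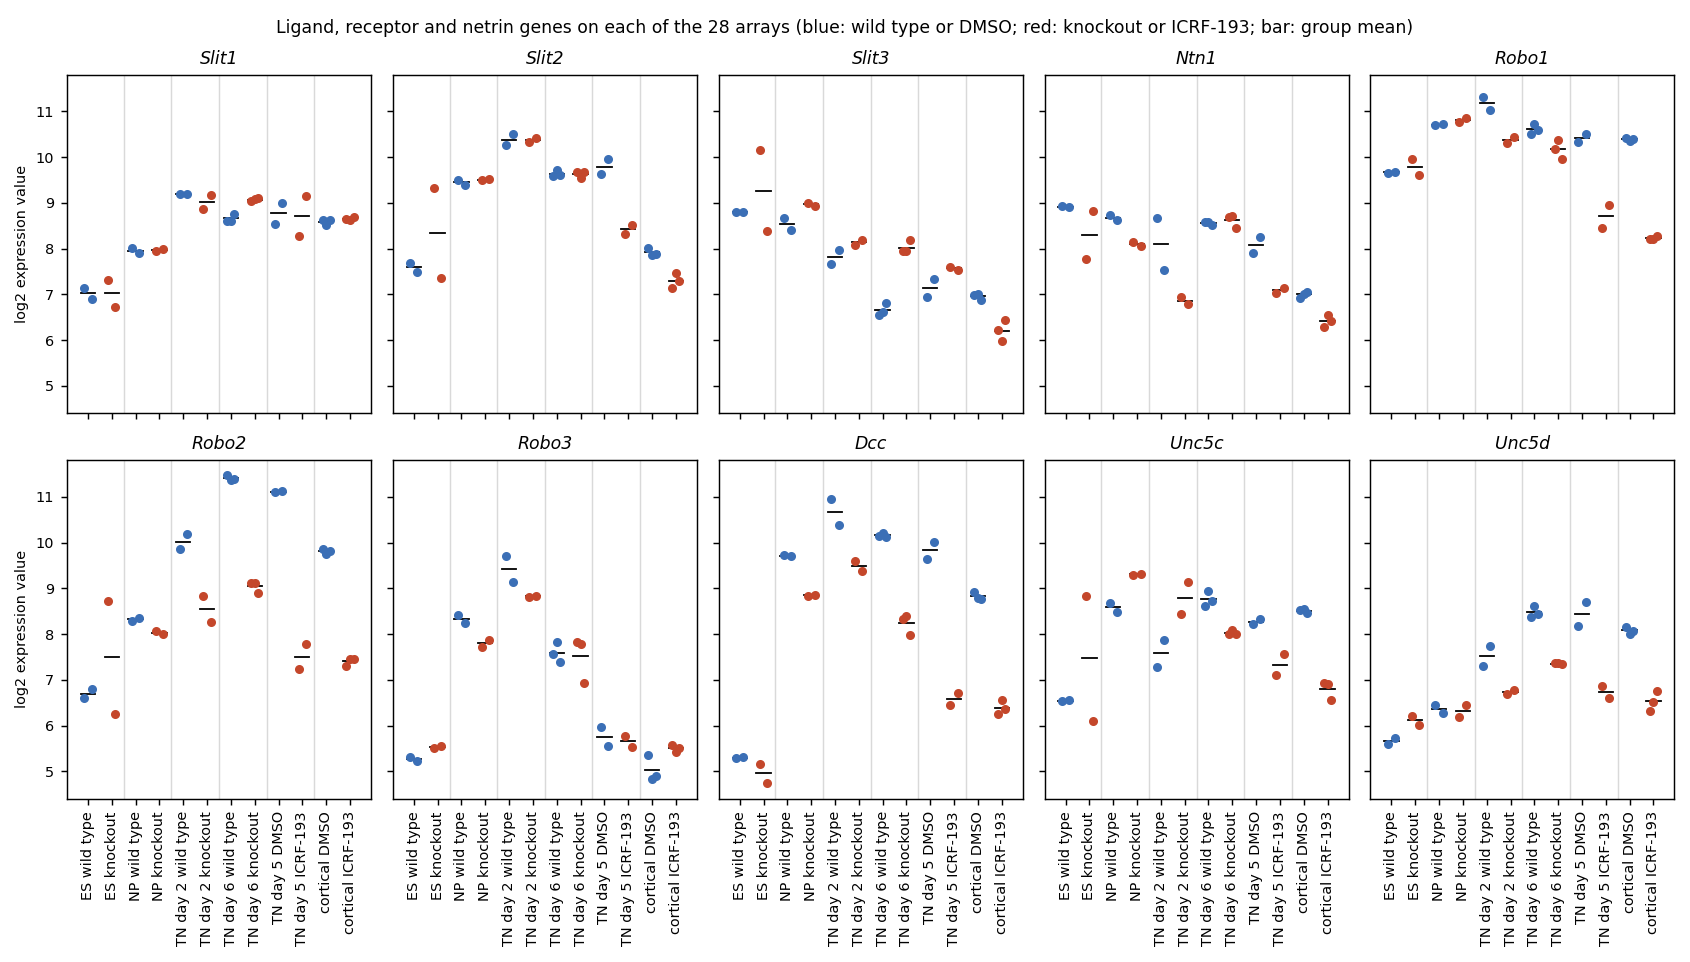
Expression values (log2, vertical axis) of the 10 guidance genes, 1 panel a gene, on all 28 arrays in their 12 groups; each point is 1 array and each bar the group mean. Dcc and Robo2 lay far lower with ICRF-193 than with DMSO at TN day 5 and in cortical neurons, while Slit1 held much the same level in both.

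Knockout of Top2β was compared with wild type stage by stage, the question named in the series' design. In ES cells none of the 10 genes was called, against 0.0853% of all genes higher and 0.266% lower (limma; 2995 genes had an unadjusted p under 0.05, among them 3 of the 10, Slit2, Unc5d and Ntn1). Given the spread between the knockout arrays, the 95% intervals were wide, from -0.04 to 1.89 for Unc5c and from -0.08 to 1.66 for Robo2. Without the second knockout array 6 of the 10 were called, as were 5018 of all 19938 genes, which rests on 1 array. In NP cells only Dcc was called: it read 9.73 and 9.70 on the wild-type and 8.84 and 8.86 on the knockout arrays and fell by 0.86 ± 0.17 (adjusted p = 0.018). Of all genes 0.381% were higher and 0.246% lower. The Dcc arrays did not overlap, and leaving out any 1 of these 4 arrays ended the call. Unc5c, at 8.68 and 8.49 in the wild type and 9.29 and 9.32 in the knockout, differed by 0.72 ± 0.46 and was not called (adjusted p = 0.88). It stayed uncalled without the knockout ES arrays (± 0.19, adjusted p = 0.066). With only these 4 arrays in the fit it was called higher (adjusted p = 0.0352).

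At TN day 2, 5 of the 10 genes fell in knockout cells and none rose, while 5.97% of all genes fell and 5.49% rose; the median of the 10 was -0.69 and that of all genes -0.04. Among the ligand genes Ntn1 fell by 1.24 ± 0.27 (adjusted p = 0.004). Its wild-type arrays themselves differed, at 8.67 and 7.53, against 6.94 and 6.78 in knockout cells, and the mesenchymal and fibroblast marker mean was 7.15 and 8.82 on the same wild-type arrays and 8.82 and 9.17 on the knockout arrays; their part in the result was not tested. The Ntn1 call ended without the first wild-type array, without the second knockout array and when only these 4 arrays entered the fit, where the adjusted p reached 0.182. The Slit genes were not called: Slit1 differed by -0.19 (95% interval -0.61 to 0.24), Slit2 by 0.00 (-0.68 to 0.69) and Slit3 by 0.32 (-0.32 to 0.96).

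The receptor genes carried the other 4 calls at TN day 2. Dcc read 10.95 and 10.39 on the wild-type and 9.61 and 9.39 on the knockout arrays and fell by 1.17 ± 0.17 (adjusted p = 0.00016), 2.25-fold. Robo2 read 9.87 and 10.18 against 8.84 and 8.27 and fell by 1.47 ± 0.42 (adjusted p = 0.024), or adjusted p = 3.2e-06 without the knockout ES arrays. Robo1, the other Slit receptor that mediates repulsion, read 11.32 and 11.04 against 10.31 and 10.43 and fell by 0.81 ± 0.15 (adjusted p = 0.0011). Unc5d read 7.30 and 7.73 against 6.69 and 6.77 and fell by 0.78 ± 0.16 (adjusted p = 0.0033). In each of these called receptor genes both knockout arrays lay below both wild-type arrays, which describes the calls and is no further test. Unc5c stood out, with 7.29 and 7.87 in the wild type against 8.43 and 9.13 in the knockout, a difference of 1.20 ± 0.46 that was not called (adjusted p = 0.11) but was called higher without the knockout ES arrays (± 0.19, adjusted p = 0.00021). Robo3, at 9.71 and 9.14 against 8.81 and 8.84, gave -0.60 ± 0.24 (adjusted p = 0.11), and was called lower with the replicate number as a block. The Robo2 call ended without either wild-type array or the second knockout array (adjusted p up to 0.264), and that of Unc5d without the second wild-type array. With only these 4 arrays in the fit those of Robo1 (adjusted p = 0.0511) and Unc5d (0.0732) ended too. Of 13 pan-neuronal markers 8 also fell at this stage, with a list mean of 10.85 and 10.79 in the wild type against 10.44 and 10.16 in the knockout, of 9 glutamatergic neuron markers 4 fell (means of 6.63 and 6.41 against 6.14 and 5.98), and of 11 cell cycle markers 4 rose; their part in the receptor results was not tested.

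At TN day 6, 4 of the 10 genes fell in knockout cells and 1 rose, against 4.8% and 5.38% of all genes. Slit3 was the ligand gene that rose: it read 6.54, 6.61 and 6.82 in the wild type against 7.94, 7.94 and 8.18 in the knockout, 1.36 ± 0.25 higher (adjusted p = 0.00078), 2.57-fold. Every knockout array lay more than 1 log2 unit above every wild-type array. Slit2 differed by -0.01 (95% interval -0.57 to 0.55) and Ntn1 by 0.07 (-0.38 to 0.52), the latter at 8.59, 8.58 and 8.51 against 8.70, 8.72 and 8.46. Slit1, at 8.61, 8.61 and 8.76 against 9.03, 9.08 and 9.10, differed by 0.41 ± 0.17 with no overlap of arrays and was not called (adjusted p = 0.15). It was called higher with array weights, with the replicate number as a block or with only the arrays compared in the fit.

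The receptor genes with the largest differences at TN day 6 were Robo2 and Dcc. Robo2 read 11.47, 11.36 and 11.40 in the wild type against 9.12, 9.11 and 8.90 in the knockout and fell by 2.37 ± 0.34 (adjusted p = 5e-05), 5.15-fold. Dcc read 10.14, 10.21 and 10.13 against 8.32, 8.39 and 7.99 and fell by 1.93 ± 0.14 (adjusted p = 5e-09), 3.8-fold. In both genes every knockout array lay more than 1 log2 unit below every wild-type array. Unc5d, at 8.38, 8.62 and 8.43 against 7.36, 7.36 and 7.35, fell by 1.12 ± 0.13 (adjusted p = 5.3e-06). Robo1 fell by 0.44 ± 0.12 (adjusted p = 0.022), from 10.51, 10.73 and 10.59 to 10.17, 10.38 and 9.97, a call that ended in 4 of the 6 fits that left out 1 array of TN day 6. Unc5c, at 8.62, 8.95 and 8.73 against 8.01, 8.08 and 8.01, gave -0.73 ± 0.38 (adjusted p = 0.3), and was called lower without the knockout ES arrays (± 0.16, adjusted p = 0.0025). Robo3 gave -0.08 (95% interval -0.48 to 0.32). Pan-neuronal markers were close at this stage, with list means of 10.95 to 10.98 in wild-type and 10.89 to 10.94 in knockout cells, while the progenitor and radial glia mean was 7.81 to 7.92 against 8.65 to 9.08 (8 of 12 markers rose) and the cell cycle mean 6.74 to 6.96 against 7.51 to 7.97 (9 of 11 rose). The glutamatergic neuron mean was 7.4 to 7.49 in the wild type and 6.95 to 7.11 in the knockout (3 of 9 fell), with Slc17a6 at 10.45 and 8.48, and the motor neuron mean 5.65 to 5.71 against 6.07 to 6.30 (3 of 7 rose). The part of these cells in the guidance gene results was not tested.

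ICRF-193 was then compared with DMSO in cells at TN day 5. Of the 10 genes 6 fell and none rose, where 6.37% of all genes fell and 2.51% rose; with arrays centred on their medians the split over all genes was 294 higher and 1579 lower instead of 501 and 1271, and the same 6 guidance genes fell. The largest drop was that of Robo2, which read 11.10 and 11.12 with DMSO against 7.24 and 7.78 with ICRF-193, -3.60 ± 0.42 (adjusted p = 3.6e-06) or 12.2-fold. Dcc read 9.64 and 10.02 with DMSO against 6.45 and 6.72 with ICRF-193 and fell by 3.24 ± 0.17 (adjusted p = 3e-11), 9.48-fold. In both receptor genes the treated arrays lay more than 2 log2 units below the DMSO arrays. Robo1 went from 10.34 and 10.51 to 8.45 and 8.96, 1.72 ± 0.15 lower on this scale (adjusted p = 5.5e-08), and Unc5d from 8.17 and 8.71 to 6.87 and 6.60, -1.71 ± 0.16 (adjusted p = 2.6e-07). Unc5c, at 8.22 and 8.32 against 7.10 and 7.56, gave -0.94 ± 0.46 (adjusted p = 0.23) and was called lower without the knockout ES arrays (adjusted p = 0.0025). Robo3, low in both groups at 5.97 and 5.55 against 5.78 and 5.53, gave -0.10 (95% interval -0.60 to 0.39).

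Among the ligand genes at TN day 5, Slit2 read 9.63 and 9.96 with DMSO against 8.32 and 8.52 with ICRF-193 and fell by 1.37 ± 0.33 (adjusted p = 0.011). Ntn1 read 7.91 and 8.26 against 7.03 and 7.14 and fell by 1.0 ± 0.27 (adjusted p = 0.021). In both the treated arrays lay below the DMSO arrays, and both calls ended without the second DMSO array or the first ICRF-193 array. Slit1 differed by -0.05 (95% interval -0.47 to 0.38) and Slit3, at 6.95 and 7.34 against 7.60 and 7.54, by 0.43 (-0.22 to 1.07). Progenitor and radial glia markers had means of 7.89 and 8.52 with DMSO against 6.79 and 6.73 with ICRF-193 (7 of 12 fell), cell cycle markers 7.10 and 7.72 against 6.56 and 6.36 (9 of 11 fell), mesenchymal and fibroblast markers 7.47 and 8.18 against 7.16 and 7.0, and pan-neuronal markers 10.69 and 10.78 against 10.56 and 10.61. The glutamatergic neuron mean was 7.39 and 7.41 with DMSO against 6.98 and 7.01 in treated cells (3 of 9 fell), with Slc17a6 at 9.93 and 8.39. The part of these cells in the guidance gene results was not tested.

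In cortical neurons 6 of the 10 genes fell with ICRF-193 and none rose, against 13.7% and 9.72% of all genes. Array medians were 0.12 higher with ICRF-193, and centring them turned the split over all genes from 1938 higher and 2726 lower to 792 and 4103 without changing any of these 6 calls; Ntn1 was then called lower as well. Dcc read 8.92, 8.78 and 8.77 with DMSO against 6.25, 6.57 and 6.36 with ICRF-193 and fell by 2.43 ± 0.14 (adjusted p = 2.8e-11), 5.39-fold. Robo2 read 9.86, 9.76 and 9.82 against 7.30, 7.46 and 7.46 and fell by 2.41 ± 0.34 (adjusted p = 1.8e-05). Robo1 read 10.42, 10.35 and 10.39 against 8.20, 8.20 and 8.28 and fell by 2.16 ± 0.12 (adjusted p = 1.4e-11), 4.46-fold. For each of these receptor genes the gap between the 2 groups was over 2 log2 units, far wider than the spread of arrays within either. Unc5c read 8.52, 8.55 and 8.46 against 6.92, 6.91 and 6.56 and fell by 1.71 ± 0.38 (adjusted p = 0.0022). Unc5d read 8.16, 8.01 and 8.07 against 6.32, 6.52 and 6.75 and fell by 1.55 ± 0.13 (adjusted p = 1.7e-08). Robo3, at 5.35, 4.83 and 4.90 with DMSO, its lowest group, and 5.58, 5.42 and 5.51 with ICRF-193, gave 0.48 ± 0.19 (adjusted p = 0.08). All these values lay below the array medians, 6.12 to 6.43 over the arrays of the series, so a fall of Robo3 could hardly have been seen. Robo3 was called higher there with array weights, the replicate block, only the arrays compared, or the first cortical DMSO array left out.

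Of the ligand genes in cortical neurons Slit3 fell by 0.75 ± 0.25 (adjusted p = 0.036), from 6.99, 7.01 and 6.88 to 6.22, 5.97 and 6.43. This call was lost in 5 of the 6 fits that left out 1 cortical array. Ntn1, at 6.93, 7.0 and 7.06 against 6.28, 6.55 and 6.42, gave -0.58 ± 0.22 (adjusted p = 0.059), and Slit2, at 8.01, 7.87 and 7.88 against 7.14, 7.47 and 7.29, gave -0.62 ± 0.27 (adjusted p = 0.1). Neither set of arrays overlapped, and both genes were called lower without the knockout ES arrays (adjusted p = 0.016 for Ntn1 and 7.2e-05 for Slit2), so that 8 of the 10 fell, against 16.4% of all genes. Slit1 read 8.62, 8.51 and 8.63 against 8.64, 8.62 and 8.70 and differed by 0.06 (95% interval -0.28 to 0.41). Marker lists moved in the same comparison: the astrocyte mean was 7.97 to 8.15 with DMSO and 6.56 to 6.60 with ICRF-193 (7 of 8 fell), the oligodendrocyte lineage mean 7.24 to 7.37 against 5.95 to 5.99 (4 of 7 fell), the progenitor and radial glia mean 8.65 to 8.69 against 7.68 to 7.80 (7 of 12 fell), the cell cycle mean 7.85 to 7.95 against 6.46 to 6.53 (11 of 11 fell) and the microglia mean 6.40 to 6.51 against 7.16 to 7.25 (8 of 8 rose). The pan-neuronal mean was 10.80 to 10.85 against 10.56 to 10.60, and the glutamatergic neuron mean 9.42 to 9.52 against 9.24 to 9.32 (3 of 9 rose and 3 fell). Slc17a6, lower with ICRF-193 at TN day 5, was higher here, at 9.59 with DMSO and 10.55 with ICRF-193. Tbr1 was at 10.14 and 11.13. What part these cells had in the guidance gene results was not tested.

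**Figure D3:**
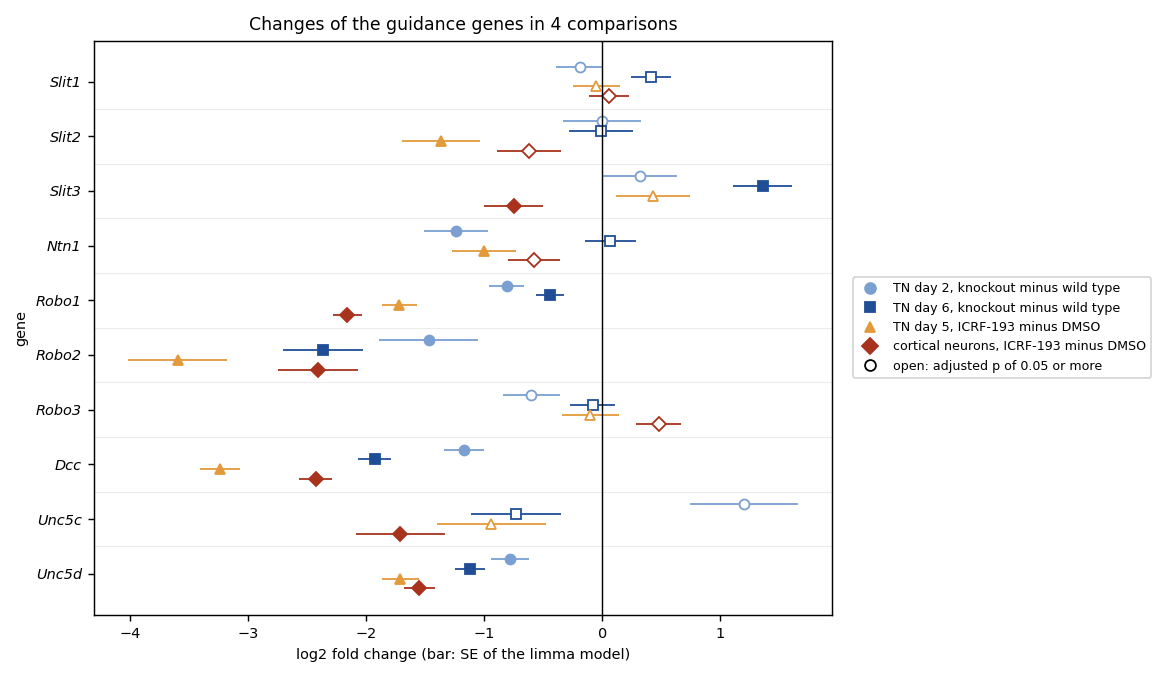
Log2 fold change (horizontal axis) of the 10 guidance genes in 4 comparisons, knockout minus wild type at TN day 2 and day 6 and ICRF-193 minus DMSO at TN day 5 and in cortical neurons; bars are the limma SE and filled points had an adjusted p under 0.05. Robo1, Robo2, Dcc and Unc5d were called lower in all 4, whereas Slit3 was higher in knockout cells at TN day 6 and lower with ICRF-193 in cortical neurons.

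Robo1, Robo2, Dcc and Unc5d were the genes called lower in 4 comparisons, in knockout cells at TN day 2 and day 6 and with ICRF-193 at TN day 5 and in cortical neurons. Slit1 was called in none of them, though 3 alternative fits called it higher at TN day 6. Whether effects differed in size was tested directly with 4 contrasts. The knockout difference of Robo1 was lower at TN day 2 than in NP cells (-0.92 ± 0.21, adjusted p = 0.021), where 1.33% of all genes gave a negative call and 1.38% a positive one. Ntn1 was lower in knockout cells at TN day 2 and not at TN day 6, and that difference was 1.31 ± 0.34 (adjusted p = 0.031), against 2.71% of all genes called positive and 2.09% negative. Unc5c gave -1.93 ± 0.60 in the same contrast, which was not called (adjusted p = 0.068). Dcc fell less with ICRF-193 in cortical neurons than at TN day 5 (0.82 ± 0.23, adjusted p = 0.04), against 1.69% of all genes called positive and 2.68% negative. Its treated means were close, 6.58 at TN day 5 and 6.39 in cortical neurons, with overlapping arrays. Its DMSO means were 9.83 and 8.82, so the smaller fall began from a lower level. The effect of ICRF-193 at TN day 5 was set against that of the knockout at TN day 6, a contrast of different days and agents, and was the larger fall for Robo1 (-1.28 ± 0.19, adjusted p = 0.00018) and Dcc (-1.32 ± 0.23, adjusted p = 0.00071), while 5.19% of all genes gave a negative and 1.89% a positive call. The first 3 of these contrasts were sensitive to single arrays: the Robo1 call ended in 6 of 8 fits that left out 1 array of the groups compared and with only the arrays compared in the fit, that of Ntn1 in 7 of 10 and with only the arrays compared in the fit, and that of Dcc in 7 of 10 and also with medians centred. The calls against the knockout at TN day 6 did not end in any of the 10 such fits. With the knockout ES arrays left out of the fit, further genes were called in all 4 contrasts. They were Robo2 for TN day 2 minus NP (-1.18, adjusted p = 0.0035), against 3.75% of all genes called negative. For TN day 6 minus TN day 2 they were Robo2 (-0.90, adjusted p = 0.0081), Dcc (-0.75, 0.025), Unc5c (-1.93, 4.6e-05) and Slit3 (1.04, 0.0013), against 4.12% of all genes negative and 5.53% positive. For ICRF-193 in cortical neurons minus TN day 5 they were Robo2 (1.19, adjusted p = 0.00057), Slit2 (0.75, 0.0035) and Slit3 (-1.18, 0.00028), against 3.22% positive and 4.23% negative. For ICRF-193 at TN day 5 minus the knockout at TN day 6 they were Robo2 (-1.24, adjusted p = 0.00038), Slit2 (-1.36, 6.6e-06), Slit3 (-0.93, 0.0025) and Ntn1 (-1.07, 0.014), against 8.31% negative.

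Cortical neurons and cells at TN day 5 also differed under DMSO alone. Of the 10 genes 5 were lower in the cortical cells and none higher, against 20.4% and 24.4% of all genes; array medians differed by -0.22, and with medians centred the split over all genes was 7532 higher and 1700 lower instead of 4865 and 4073. Slit2 fell by 1.87 ± 0.30 (adjusted p = 3.8e-05), Robo2 by 1.30 ± 0.38 (adjusted p = 0.0087), Ntn1 by 1.09 ± 0.24 (adjusted p = 0.0011) and Dcc by 1.01 ± 0.16 (adjusted p = 3.2e-05). The Robo2 call ended without the first DMSO array of TN day 5 (adjusted p = 0.0541). Robo3 fell by 0.73 ± 0.22 (adjusted p = 0.0089), a call that was lost with medians centred, with quantile normalization and without the first DMSO array of TN day 5. Unc5d differed by -0.36 ± 0.15 (adjusted p = 0.056) and was called lower without the knockout ES arrays (adjusted p = 0.048). Robo1, at 10.34 and 10.51 against 10.42, 10.35 and 10.39, differed by -0.04, and Slit1 by -0.18. Each source was represented by its own set of arrays, so source and preparation cannot be told apart.

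Genomic span was set against the differences of the 10 genes. Over the 10 genes, Spearman's rho between genomic span and log2 difference was -0.39 for the knockout at TN day 2, -0.61 at TN day 6, -0.70 with ICRF-193 at TN day 5 and -0.94 in cortical neurons, and 0.22 and 0.03 in knockout ES and NP cells. The 10 points come from the same arrays and are a description. Robo3, the shortest gene, read below the array medians in the TN day 5 and cortical groups, so it had little room to fall there. The 5 genes over 500 kb, Robo1, Robo2, Dcc, Slit3 and Unc5d, had a median of -0.81 at TN day 2, -1.12 at TN day 6, -1.72 at TN day 5 and -2.16 in cortical neurons, against -0.19, -0.01, -0.94 and -0.58 for the 5 shorter ones. All 212 measured genes over 500 kb had medians of -0.32, -0.54, -0.89 and -0.97 in the same order, and 37.3%, 53.8%, 59.4% and 73.6% of them were called lower. Members over 500 kb were thus among a set in which such calls were common. Slit3, 587 kb long, was an exception: it rose in knockout cells at TN day 6, when 2.83% of the genes over 500 kb did so, and its fall in cortical neurons was the smallest of the 5. Ntn1, 177 kb long, was an exception the other way at TN day 2, where its difference of -1.24 was larger than those of Dcc, Robo1 and Unc5d.

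**Figure D4:**
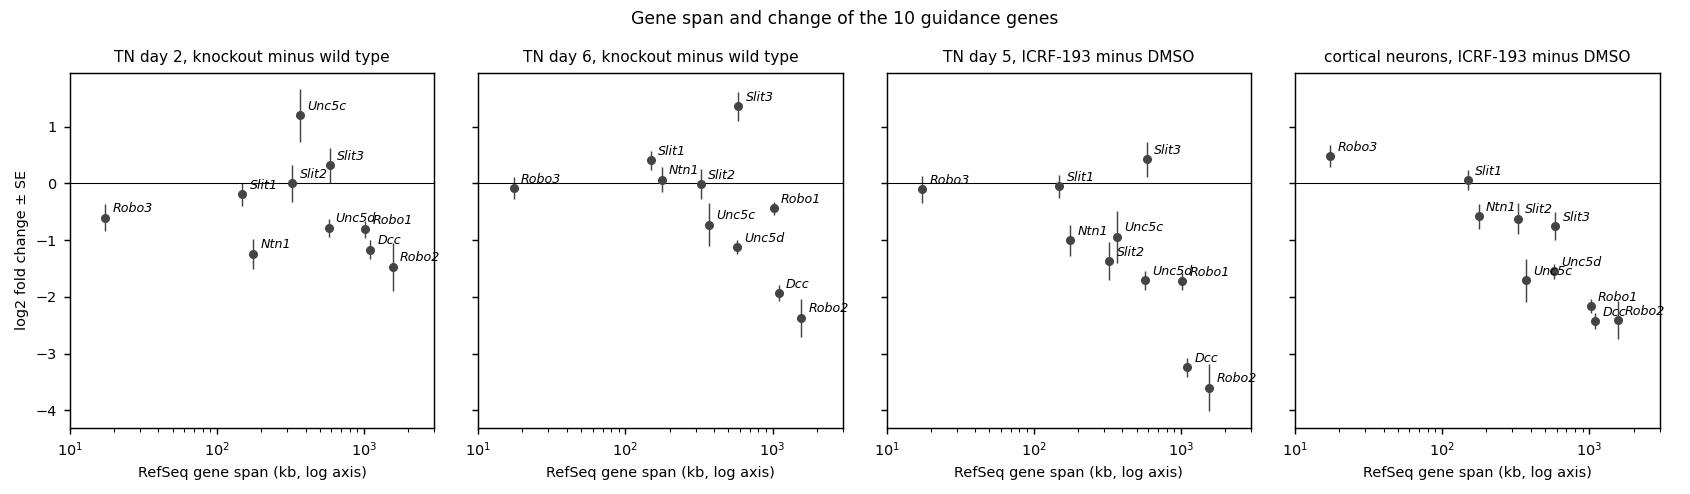
Log2 fold change of the 10 guidance genes (vertical axis, bars are the limma SE) against genomic span in kb (horizontal axis, logarithmic) in the 4 comparisons at the TN stages and in cortical neurons, 1 panel each. Robo1, Robo2 and Dcc, each over 1 Mb, lay lowest or near it with ICRF-193. Slit3 lay above the other 4 genes over 500 kb in every panel. It also lay above all shorter ones at TN day 6 and TN day 5, but not at TN day 2 or in cortical neurons.

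Other genes of the 2 guidance systems were taken from lists and moved in both directions. Of 24 further ligands and receptors 22 were measured, and of these 3 rose and 6 fell in the knockout at TN day 2, 4 rose and 5 fell at TN day 6, 2 rose and 3 fell with ICRF-193 at TN day 5, and 3 rose and 6 fell in cortical neurons. Over all genes 5.49% rose and 5.97% fell at TN day 2, 5.38% and 4.8% at TN day 6, 2.51% and 6.37% at TN day 5, and 9.72% and 13.7% in cortical neurons. Nell2, which encodes a secreted ligand of Robo3, fell by 1.45 ± 0.13 in the knockout at TN day 2 and by 1.03 ± 0.11 at TN day 6. With ICRF-193 it fell by 2.40 ± 0.13 in TN day 5 cells and by 2.99 ± 0.11 in cortical neurons (limma adjusted p = 1.8e-14). Its paralog Nell1 fell by 1.12 ± 0.16 at TN day 6, and with ICRF-193 by 1.61 ± 0.19 at TN day 5 and 1.16 ± 0.16 in cortical neurons. Unc5a, another repulsive netrin receptor, moved the other way from Unc5d, 1.19 ± 0.09 higher in knockout cells at TN day 6 (adjusted p = 1.2e-08) and 0.71 ± 0.11 higher with ICRF-193 at TN day 5. Rgma, a ligand of the Dcc relative neogenin, was 0.90 ± 0.17 higher in knockout cells at TN day 6 and 0.80 ± 0.17 higher in treated cortical neurons, but fell by 0.70 ± 0.21 in the knockout at TN day 2. Lrig1 also fell at TN day 2, by 1.17 ± 0.28, and Unc5b and Sdc1 were 0.83 and 0.80 higher. Dscam, which also binds netrin, was the third to fall at TN day 5 with ICRF-193, by 1.45 ± 0.21; it was named after its values were seen. In NP cells Unc5a was the 1 gene of the list called, 0.57 ± 0.11 lower (adjusted p = 0.017), and in ES cells none was.

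Of 35 intracellular partners and effectors 31 were measured. They counted 2 higher and 5 lower in the knockout at TN day 2, 4 and 2 at TN day 6, 1 and 3 with ICRF-193 at TN day 5, and 0 and 9 in cortical neurons, and none was called in knockout ES or NP cells. The shares over all genes given for the ligand and receptor list apply here too, and 1 and 3 of 31 at TN day 5 are near them. Dock1, a Rac activator that acts downstream of Dcc, was 1.57 ± 0.21 higher in knockout cells at TN day 2 and 1.07 ± 0.17 higher at TN day 6, but ICRF-193 cells had less of it, with differences of -1.20 ± 0.21 at TN day 5 and -1.33 ± 0.17 in cortical neurons. Ablim1, an actin-binding protein, was 1.18 ± 0.14 higher in knockout cells at TN day 6 and 1.24 ± 0.18 higher with ICRF-193 at TN day 5, but fell by 0.56 ± 0.14 in treated cortical neurons. Myo10, the myosin that carries Dcc into filopodia, fell by 0.84 ± 0.23 at TN day 5 and by 1.36 ± 0.18 in cortical neurons with ICRF-193 (adjusted p = 1.1e-05), and was 0.73 ± 0.18 higher in knockout cells at TN day 6. Srgap3 and Trim67, partners of Robo and of Dcc, fell by 0.59 ± 0.15 and 0.51 ± 0.14 in knockout cells at TN day 2. The medians of the 2 lists lay between -0.14 and 0.05 in these 4 comparisons, against -0.69 to -1.19 at TN day 2, TN day 5 and in cortical neurons and -0.26 at TN day 6 for the 10 guidance genes, and against -0.04 to 0.04 over all genes.

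Slit2 and Slit3 each hold a copy of the gene of miR-218 within their span, and both copies had a probe set of their own; they were added after the values of their hosts were seen. The mature 5p miRNA is the same from Mir218-1 in Slit2 (chr5:48223966-48223986, plus strand) and Mir218-2 in Slit3 (chr11:35616840-35616860, plus strand, RefSeq, GRCm38.p6), while the 3p arms differ, and seed bases 2 to 8 are in capitals.
mmu-miR-218-5p: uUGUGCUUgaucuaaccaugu
mmu-miR-218-1-3p: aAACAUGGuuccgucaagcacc
mmu-miR-218-2-3p: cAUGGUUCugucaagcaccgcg
An array of total RNA does not separate mature miRNA, hairpin and host transcript. Both probe sets were dim: group means were 5.05 to 6.36 for Mir218-1 and 4.29 to 5.52 for Mir218-2, while array medians lay between 6.12 and 6.43, so a lack of calls says little. Both were called higher in wild-type cells at TN day 2 than in NP cells, by 0.72 ± 0.25 (adjusted p = 0.022) and 0.58 ± 0.17 (adjusted p = 0.0078), and neither was called in any comparison of knockout or ICRF-193. At TN day 6, where Slit3 rose in knockout cells, Mir218-2 gave 0.38 ± 0.14 (adjusted p = 0.11), and at TN day 5, where Slit2 fell, Mir218-1 gave -0.21 ± 0.25 (adjusted p = 0.66). Host and copy also parted. Mir218-1 gave -0.57 ± 0.21 (adjusted p = 0.097) in the knockout at TN day 6, where Slit2 gave -0.01. Mir218-2 rose from NP cells to TN day 2, where Slit3 gave -0.72. Over the 12 group means the correlation with the host was 0.85 for Mir218-1 and -0.28 for Mir218-2.

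Over the 12 group means the members paired in part. Robo2 and Unc5d followed each other most closely (r = 0.95), then Robo3 and Slit2 (0.85), and Slit3 and Unc5d ran opposite to each other (-0.67). For each member the 3 genes with the highest correlation of group means were found among 11085 genes that ranged over 1 log2 unit or more. They were Arid1b, Zswim6 and Cadm1 for Robo1 (0.909 to 0.932), Nbea, Unc5d and Ephb1 for Robo2 (0.949 to 0.955), and Nhlh2, Ebf2 and St18 for Robo3 (0.964 to 0.979). For Dcc they were Mllt3, Tmtc2 and Setbp1 (0.944 to 0.973), for Unc5c St6galnac3, Tmem108 and Foxp2 (0.825 to 0.871), and for Unc5d Plxna4, Nrg3 and Fbxl17 (0.976 to 0.982). Of the ligand genes, Slit1 was closest to Zfp146, Mrs2 and Hmgb3 (0.986 to 0.987), Slit2 to Zfp521, Hoxa2 and Hoxc6 (0.942 to 0.950), Slit3 to Spata6, Fbln1 and Bora (0.951 to 0.960) and Ntn1 to Slc15a4, Dpp9 and Hic2 (0.864 to 0.876). Unc5c and Ntn1 had no gene above 0.88, so their courses were the least shared. Over the 28 single arrays in place of group means, 18 of these 30 genes were again among the nearest 3.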

How the data were processed

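Total RNA of the 28 samples was measured on expression arrays, 1 array a sample, and grouped by the labels. The deposited table held log2 values, 1 per probe set and array; the submitters' processing notes name oligo 1.14.0, with no role stated. None of summarization, background correction, log base or genome build is given in the sources used here. Base 2 was read from the range of values, 1.963 to 13.99. Of 35556 probe sets, 21789 had 1 gene symbol in the platform annotation, 1621 several and 12146 no entry; the probe set with the highest mean stood for a gene, which gave 19938 genes. The log2 values were used as deposited by the authors and fitted with limma 3.58.1 in R 4.3.3 (lmFit and eBayes, 1 mean for each of the 12 groups, all arrays sharing 1 variance estimate, 16 residual and 4.87 prior degrees of freedom). The p-values were adjusted over all 19938 genes by the Benjamini-Hochberg method, and "called", "rose" and "fell" mean an adjusted p under 0.05. The fit was checked on simulated data.

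The members and gene lists were chosen with earlier results of these data known. All 10 members were named; of each pathway list, the genes with the 2 largest rises and 2 largest falls past the threshold in a comparison were named, with the miR-218 genes and the further calls of pathway genes already named added outside this rule. Alternatives were quantile normalization, median centring, a filter on dim genes (a group mean over 6), array weights, a trended and robust prior, the mean over probe sets, the replicate number as a block, only the arrays compared, and leaving out each array. Genomic spans and sequences are RefSeq's, and were matched by symbol. Same-numbered replicates did not deviate together in every stage, so the numbers were not taken to pair the samples.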

Additional observations from a re-analysis of the deposited data

Results flagged for a closer look

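The following results were picked out because a test of the difference between 2 effects passed the threshold (limma, Benjamini-Hochberg adjusted). The knockout difference of Robo1 was lower at TN day 2 than in NP cells by -0.92 (adjusted p = 0.021). The knockout difference of Ntn1 was higher at TN day 6 than at TN day 2 by 1.31 (adjusted p = 0.031). The ICRF-193 difference of Dcc was higher in cortical neurons than at TN day 5 by 0.82 (adjusted p = 0.04), that is, a smaller fall. That fall began from a lower DMSO mean (8.82 against 9.83) and ended at a similar treated mean (6.39 against 6.58). The ICRF-193 difference at TN day 5 lay below the knockout difference at TN day 6 by -1.28 for Robo1 (adjusted p = 0.00018) and by -1.32 for Dcc (adjusted p = 0.00071).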

How the results depend on the processing

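Over the alternatives run, no called guidance gene changed direction; of the values for each gene, comparison and alternative, 1957 kept their side of the threshold, 100 passed it newly and 73 no longer did. With only the arrays compared, members called went from 1 to 2 in NP cells and from 5 to 2 at TN day 2, and all genes called from 70 to 0 in ES cells, 125 to 201 in NP cells, 2284 to 315 at TN day 2, 1772 to 385 at TN day 5 and 4664 to 7960 in cortical neurons. With array weights, all genes called came to 0 in ES cells, 251 in NP cells, 3816 at TN day 6 (2030 before), 742 at TN day 5 and 8967 in cortical neurons. Leaving the knockout ES arrays out of the fit, chosen after seeing the data, gave 377 in NP cells, 3494 at TN day 2 and 2702 at TN day 5. Members called for the knockout effect at TN day 2 minus NP (1) came to 2 with array weights, 2 without the knockout ES arrays and 0 with only the arrays compared. For TN day 6 minus TN day 2 (1) they came to 2 with quantile normalization, the filter on dim genes or the trended and robust prior, 4 with array weights, the replicate block or only the arrays compared, and 5 without the knockout ES arrays. For the ICRF-193 effect in cortical neurons minus TN day 5 (1) they came to 0 with median centring, 3 with array weights, and 4 without the knockout ES arrays or with only the arrays compared. For ICRF-193 at TN day 5 minus knockout at TN day 6 (2) they came to 4 with quantile normalization or the replicate block, 5 with array weights, and 6 without the knockout ES arrays or with only the arrays compared. For these shifts the cause was not tested, beyond the fewer samples in the fits of only the arrays compared.
Leaving out 1 array at a time, members called ranged from 0 to 6 in ES cells, 0 to 0 in NP cells, 3 to 5 at TN day 2, 4 to 5 at TN day 6, 4 to 6 at TN day 5, 5 to 6 in cortical neurons, 8 to 8 from ES to NP cells, 5 to 7 from NP to TN day 2, 4 to 7 from TN day 2 to day 6 and 4 to 5 between the DMSO groups, and for the 4 differences of effects, in the order above, from 0 to 2, 0 to 1, 0 to 1 and 2 to 3. All genes called ranged from 5 to 5018, 37 to 72, 504 to 2364, 1394 to 1840, 684 to 2291, 3321 to 3553, 7011 to 8670, 8283 to 9008, 4139 to 4993 and 5577 to 8192 in the same order; the 5018 in ES cells were without the second knockout array. The lone array left in a group of 2 is then assumed to vary like the others.
The correlation of deviations of same-numbered arrays was 0.038 in ES cells, -0.23 in NP cells, 0.137 at TN day 2, -0.019 to 0.071 at TN day 6, 0.379 at TN day 5 and -0.062 to -0.013 in cortical neurons. With the replicate block, members called were 0, 1, 6, 6, 6 and 8 in these 6 comparisons and 8, 8, 9 and 5 in the steps and the DMSO comparison, where all genes called were 54, 110, 2214, 1988, 1586 and 4555, and 9134, 9648, 5624 and 8874. Crossing the NP replicate numbers within the block, chosen after seeing the data, gave 1 member and 121 of all genes in NP cells. The sign of the uncalled Slit1 difference turned with quantile normalization at TN day 5 (0.07) and with median centring in cortical neurons (-0.05). The small number of arrays limits the precision of every value.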
